A study of Homo sapiens with 12 samples.

Results

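DNA replication genes were followed in HUDEP-2, an immortalised line of human erythroid precursors, during acute stimulation by stem cell factor (SCF), the ligand of the receptor tyrosine kinase KIT. The genes were 43 named components of the replication machinery, chosen by function and matched by symbol: licensing factors, the MCM2-7 helicase, its activators, primase and the polymerases, the sliding clamp and its loader, single-strand binding proteins, Okazaki fragment enzymes, nucleotide supply enzymes and UHRF1. The deposited table holds 54628 genes. A read was assigned to 27654 of them in some library, and 15492 passed the filter on low counts. All 43 replication genes passed it.

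The series held 12 RNA-seq libraries in 4 groups of 3 replicates. The sgControl cells carried a scramble guide and the sgEGR1 cells a guide to an element 1.2 kb upstream of EGR1. Both had dCas9-KRAB, a nuclease-dead Cas9 fused to a repressor domain, delivered by lentivirus and selected by GFP sorting, so every group shared the repressor. All cells grew with SCF, erythropoietin, dexamethasone and doxycycline, were starved for 5 h in medium with albumin and no cytokine, and then received PBS or 50 ng/mL SCF for 1 h.

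Replication begins when the origin recognition complex, CDC6 and CDT1 load MCM2-7 onto DNA in G1, and geminin (GMNN) later holds CDT1 inactive so that no origin is loaded again. In S phase CDC45 and the GINS complex turn MCM2-7 into the moving helicase, primase and the polymerases copy the strands behind a PCNA clamp, and FEN1 and LIG1 join the lagging strand. Many of these genes are transcribed by E2F factors around the G1/S transition, and erythroid precursors are known for rapid divisions coupled to differentiation.

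The letters of the promoters are given first because they show what CDC6 and CDT1, the members with the highest and the lowest response to SCF, carry next to their start sites. In the 250 bases before the RefSeq start (build GRCh38.p14, 5′ to 3′ on the gene's strand, credited to RefSeq), capitals mark CCAAT on either strand and the 4 E2F-type octamers TTTCCCGC, TTTGGCGC, TTTGCCGC and TTTCGCGC on either strand. The CDC6 stretch is chr17:40287629-40287878 and the CDT1 stretch is chr16:88803539-88803788, both on the plus strand and both free of annotated exons.
CDC6: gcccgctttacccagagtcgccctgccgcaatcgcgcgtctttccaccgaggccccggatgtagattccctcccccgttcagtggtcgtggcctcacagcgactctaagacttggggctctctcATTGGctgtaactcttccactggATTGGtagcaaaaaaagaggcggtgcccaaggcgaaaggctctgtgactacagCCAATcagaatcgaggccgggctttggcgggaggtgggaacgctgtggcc
CDT1: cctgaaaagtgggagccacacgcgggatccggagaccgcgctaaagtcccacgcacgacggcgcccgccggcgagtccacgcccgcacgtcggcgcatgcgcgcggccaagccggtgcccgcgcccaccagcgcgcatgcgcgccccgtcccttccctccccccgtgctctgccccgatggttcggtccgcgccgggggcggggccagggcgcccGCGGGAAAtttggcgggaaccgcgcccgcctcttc
CDC6 holds CCAAT on one strand or the other at 3 places and none of the 4 octamers before its start. CDT1 holds 1 of the octamers and no CCAAT. Both stretches also hold the letters tttggcggg, unmarked because they lie outside the 4 octamers, so the difference depends on that list.

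Short windows show the octamers of the 5 members called with SCF that hold one, with the octamer in capitals and 11 bases on either side. They lie at chr17:40287875-40287904 for CDC6, chr16:88803743-88803772 for CDT1, chr6:24775322-24775351 for GMNN, chr16:85688967-85688996 for GINS2 and chr20:5126663-5126692 for PCNA, the last pair on the minus strand. The CDC6 octamer begins just after the start site and the others lie 23 to 72 bases before it.
CDC6: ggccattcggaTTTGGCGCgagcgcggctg
CDT1: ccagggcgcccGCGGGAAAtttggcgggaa
GMNN: gctgggtcggtTTTGGCGCgctctcacttc
GINS2: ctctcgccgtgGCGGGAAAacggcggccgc
PCNA: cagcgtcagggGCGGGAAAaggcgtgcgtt
RefSeq promoter windows of 300 bases (250 before and 50 after the start) were matched for 37 of the 43 members, without MCM4, MCM5, GINS4, POLD3, RPA2 and RPA3. An E2F-type octamer was present in any window of 19 of the 37 (51.4%), against 6.7% of 10992 genes tested, counted in the same way. Taken window by window, it was in 3.31% of 35116 promoters, which is a different measure. It was present for 4 of the 9 members called higher with SCF, for the 1 called lower, and for 14 of the 27 members with a promoter that were not called. CCAAT, the NF-Y pentamer, was in 24 of the 37 members (64.9%) against 42.5% of the tested genes. The EGR-type heptamer GCGTGGG was in 4, namely CDT1, POLA2, PRIM1 and UHRF1 (10.8% against 12.6% of the tested genes). The AP-1 heptamers TGACTCA and TGAGTCA were in none of the 37 (4.64% of the tested genes). The octamers overlap one another in some windows, and a match is a description of letters only.

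Assigned reads per library numbered 23498065 to 32039680. SCF libraries held 28395464 to 32039680 and PBS libraries 23498065 to 29112768, so the ranges overlapped while the group means were higher after SCF. The targeted gene EGR1 measured 10.9, 5.99 and 7.45 CPM (counts per 1000000 after TMM scaling) in sgControl cells after PBS, 207, 239 and 171 CPM after SCF, 2.04, 1.12 and 0.977 CPM in sgEGR1 cells after PBS, and 40.4, 57.4 and 204 CPM after SCF. The library labelled sgEGR1 SCF replicate 3 therefore went against its label, at the sgControl level, and the guide comparisons are given with and without it. Replicate 1 stood apart from replicates 2 and 3 in every group. Erythroid markers were present in every library (GATA1 271 to 327 CPM, KLF1 654 to 804 CPM, KIT 462 to 555 CPM), except that HBG1, a fetal globin gene, ranged from 0 to 166 CPM. Of the 17 markers of other lineages, EPCAM (138 to 171 CPM) and ITGA2B (12 to 35.2 CPM) were present and the other 15 stayed below 1 CPM in every library. In bulk RNA, fewer cells in S phase and less RNA per cell cannot be told apart.

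The members' levels spanned a 22.4-fold range. Levels are compared here as mean CPM per kilobase of the MANE transcript over the 12 libraries, with the SD over libraries where given. MCM7, a helicase subunit, was highest at 258 ± 7.84 (SD, n = 12) and CDC6 was lowest at 11.5 ± 1.66 (SD, n = 12). These ranks depend on the transcript length used. In CPM alone, MCM4 was highest with a mean of 718 and POLE2 lowest with 29.3, while CDC6 was at 52.6. The other MCM2-7 subunits followed in the order MCM4 at 177, MCM5 at 158, MCM2 at 136, MCM3 at 124 and MCM6 at 62.7 CPM per kilobase. The complex is built with equal numbers of its subunits, and their transcripts were not at equal levels.

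Licensing transcripts ranged from CDT1 at 105 and GMNN at 73.7 down through ORC1 at 32.1, ORC6 at 22.5 and ORC2 at 16.3 CPM per kilobase, with CDC6 last. Helicase activators were low as a group, with CDC45 at 34.2, GINS2 at 19.4, GINS4 at 18.6, MCM10 at 17.0, GINS3 at 16.7 and GINS1 at 13.8 CPM per kilobase. Among primase and polymerase subunits, POLD2 stood at 113, POLD1 at 67.2, PRIM1 at 41.4, POLE at 26.7 and PRIM2 at 22.6 CPM per kilobase, while POLD3 at 17.4, POLE2 at 17.3, POLA2 at 15.9 and POLA1 at 15.1 lay close together. The ranges over libraries of POLD3 and POLE2 overlapped, as did those of POLA2 and POLA1, whereas POLD3 (16.3 to 18.9) lay above POLA1 (14.0 to 16.0) in every library.

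PCNA, the clamp, reached 239 CPM per kilobase. Its loader subunits lay far lower, with RFC4 at 56.0, RFC1 at 38.4, RFC2 at 36.4, RFC5 at 34.1 and RFC3 at 28.6 CPM per kilobase. The single-strand binding subunits stood at 77.9 for RPA2, 50.1 for RPA1 and 32.7 for RPA3. The lagging-strand ligase LIG1 was at 88.0 and the flap nuclease FEN1 at 67.4 CPM per kilobase. TK1 at 110 CPM per kilobase, the salvage kinase for thymidine, was the highest of the nucleotide enzymes, and RRM2 at 90.2, RRM1 at 88.8 and TYMS at 88.6 did not differ beyond the spread over libraries. UHRF1, which guides maintenance DNA methylation, stood at 32.8 CPM per kilobase.

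**Figure D1:**
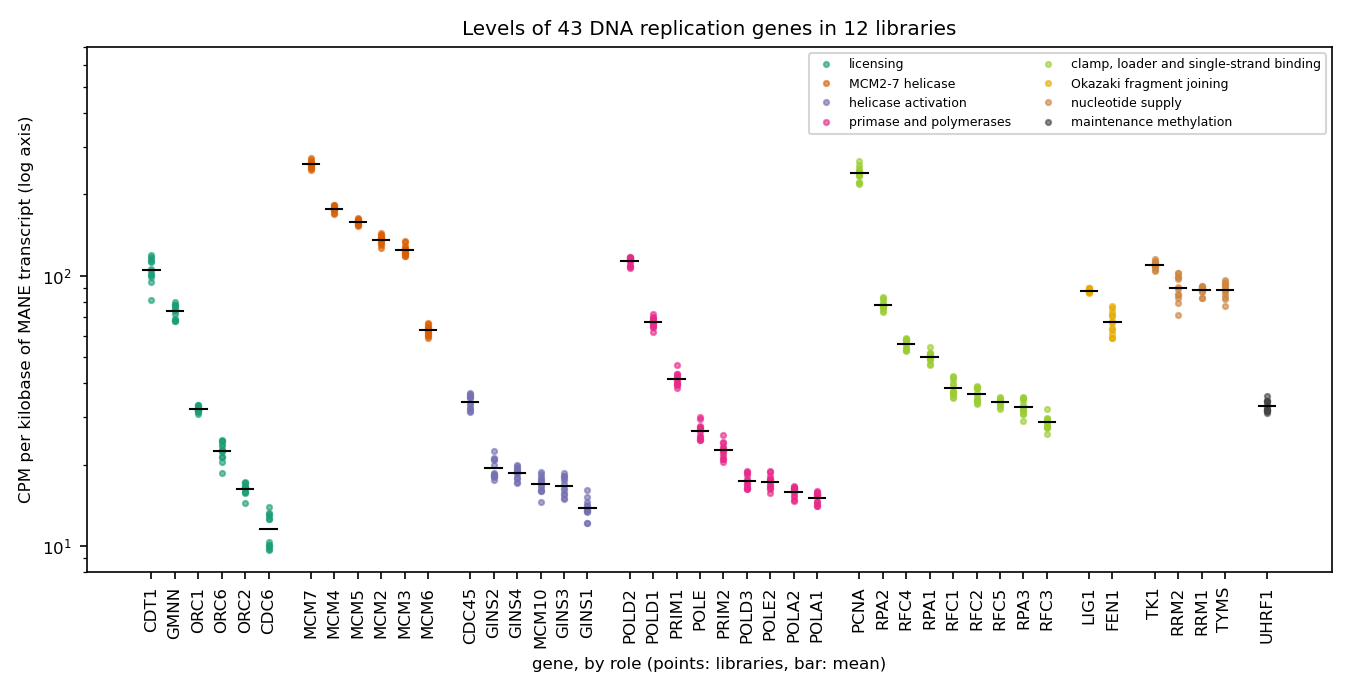
Levels of the 43 replication genes, as CPM per kilobase of MANE transcript on a log axis, grouped by role. Each point is 1 of 12 libraries and each bar the mean; MCM7 (258) and PCNA (239) are highest and CDC6 (11.5) is lowest.

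After 1 h of SCF, CDC6, RRM2, FEN1 and 6 other replication transcripts rose and CDT1 fell, by small amounts. Averaged over sgControl and sgEGR1 cells (6 SCF against 6 PBS libraries), 10 of the 43 genes passed an adjusted p of 0.05 (edgeR quasi-likelihood F test, Benjamini-Hochberg over 15492 genes), that is 23.3% beside 9.03% of all genes tested. Of these, 9 were higher (5.58% of all genes) and 1 was lower (3.45% of all genes). The median log2 fold change over members was 0.059, against -0.0045 over all genes, with 35 members above 0 and 8 below. At an unadjusted p under 0.05 there were 22 of the 43 members, against 22.7% of all genes. With DESeq2 instead of edgeR, 18 of the 43 members were called, beside 13.6% of the 13166 genes given an adjusted p. With replicates 2 and 3 only, 11 of the 43 were called by edgeR, beside 11.3% of all genes. The 43 genes together took 0.733% ± 0.00567 of the counts in sgControl cells after PBS and 0.773% ± 0.00514 after SCF, and 0.739% ± 0.00680 and 0.769% ± 0.00648 in sgEGR1 cells (SD, n = 3 each).

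**Figure D2:**
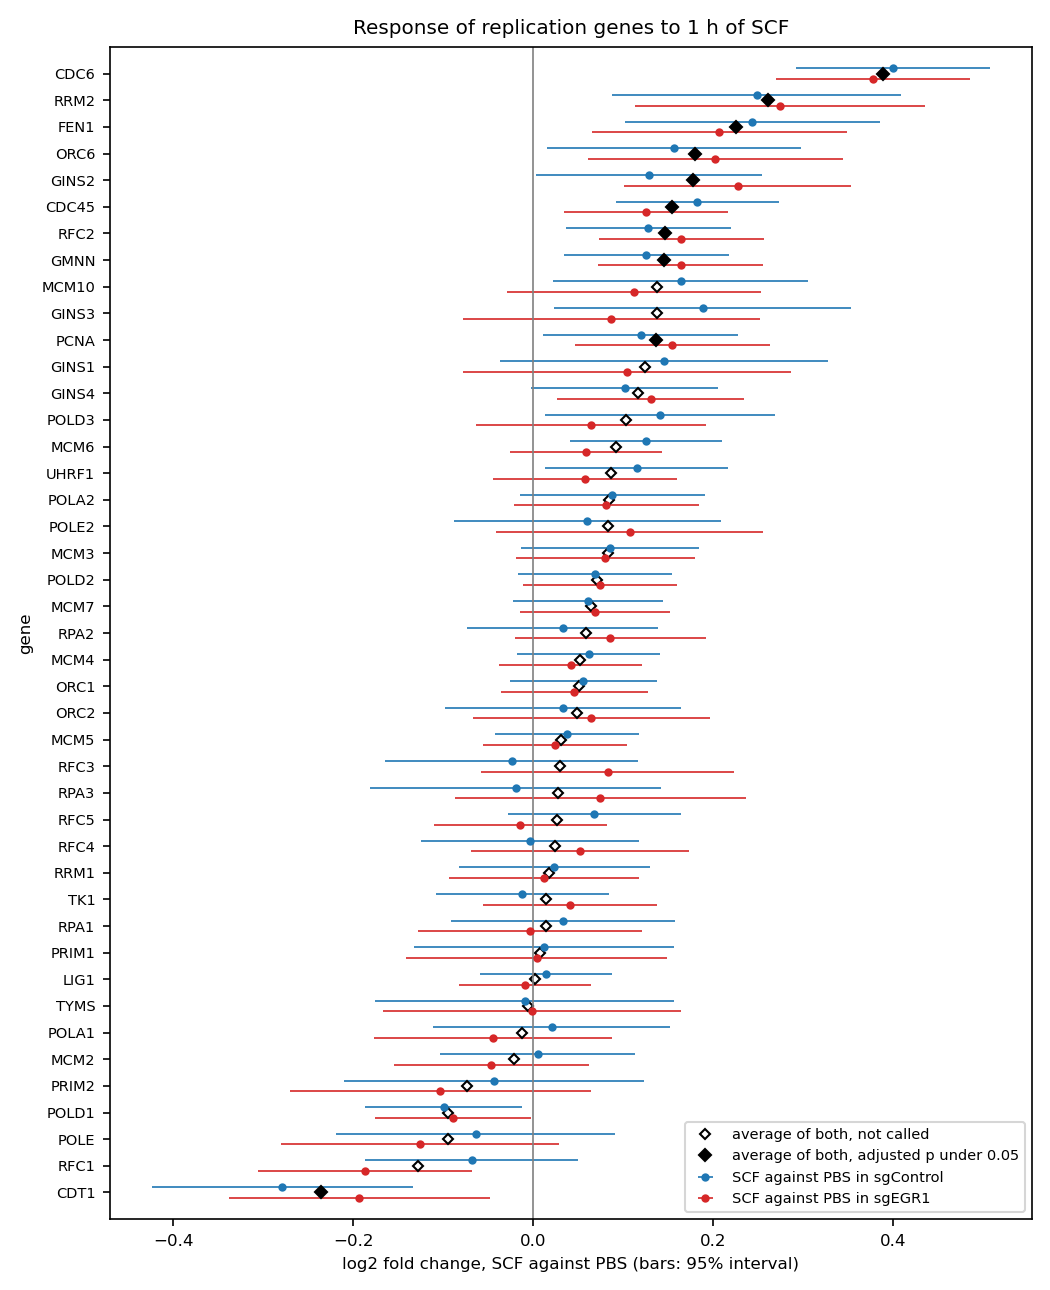
Log2 fold change of each replication gene after SCF against PBS, with 95% intervals, in sgControl (blue) and sgEGR1 (red) cells, and their average (diamonds, filled where adjusted p was under 0.05). CDC6 is at the top (average 0.39), CDT1 at the bottom (average -0.24), and 33 genes lie between them without a call.

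The licensing factors held 4 of the 10 calls, where 9.03% of all genes tested were called. CDC6, the ATPase that brings MCM2-7 to the origin recognition complex (chr17:40287879-40304657, plus strand), measured 44.5, 46.0 and 44.3 CPM after PBS and 60.5, 57.2 and 60.1 CPM after SCF in sgControl replicates 1 to 3, and 47.1, 45.4 and 46.2 against 63.7, 58.9 and 57.6 CPM in sgEGR1 cells. All 6 SCF libraries lay above all 6 PBS libraries, with a gap from 47.1 to 57.2 CPM. The average log2 fold change was 0.39 (SE 0.035, adjusted p = 3.28e-05, edgeR), an increase of 30.9%.

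CDT1, which delivers MCM2-7 to origins and is the protein that geminin binds (chr16:88803789-88809258, plus strand), went the other way. It measured 282, 311 and 299.7 CPM after PBS and 252, 267 and 217 CPM after SCF in sgControl cells, and 316, 302 and 307 against 270.1, 276 and 263 CPM in sgEGR1 cells. All 6 SCF libraries lay below all 6 PBS libraries, although the highest SCF value (276) and the lowest PBS value (282) were close and sgControl SCF replicate 3 was well below the rest. The average log2 fold change was -0.24 (SE 0.047, adjusted p = 0.00789, edgeR).

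GMNN, the CDT1 inhibitor (chr6:24774931-24786099, plus strand), measured 86.0, 93.5 and 90.8 CPM after PBS and 98.2, 95.5 and 101 CPM after SCF in sgControl cells, and 86.8, 86.0 and 87.4 against 98.2, 95.2 and 98.1 CPM in sgEGR1 cells. Its groups did not overlap, and the average log2 fold change was 0.14 (SE 0.030, adjusted p = 0.00904, edgeR). The transcript of the inhibitor was thus higher while that of its target was lower.

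ORC6, the smallest origin recognition subunit (chr16:46689643-46698394, plus strand), measured 34.4, 34.5 and 36.5 CPM after PBS and 39.5, 38.3 and 39.7 CPM after SCF in sgControl cells, and 30.0, 33.2 and 35.8 against 37.8, 36.7 and 39.5 CPM in sgEGR1 cells. The 6 SCF libraries again lay above the 6 PBS libraries, with an average log2 fold change of 0.18 (SE 0.046, adjusted p = 0.0291, edgeR). ORC6 was no longer called without any single one of sgControl PBS replicates 1 and 2, the 3 sgControl SCF replicates, sgEGR1 PBS replicate 2 and sgEGR1 SCF replicate 3 (adjusted p = 0.051 to 0.0772, edgeR), or with replicates 2 and 3 only (adjusted p = 0.0957, edgeR). The larger origin subunits ORC1 and ORC2 had average log2 fold changes of 0.05 and 0.05 and adjusted p of 0.291 and 0.569 (edgeR).

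In the MCM2-7 helicase, 0 of 6 subunits passed (9.03% of all genes) and 3 had an unadjusted p under 0.05 (22.7% of all genes, edgeR). DESeq2 called 3 of the 6 (MCM3, MCM6 and MCM7), beside 13.6% of the genes given an adjusted p. The average log2 fold changes of the 6 subunits ran from -0.02 (MCM2) to 0.09 (MCM6), and 5 of the 6 were above 0. MCM6 measured 221, 224 and 227 CPM after PBS and 241, 243 and 249.7 CPM after SCF in sgControl cells, where the groups were apart, and 226, 236 and 232 against 233, 241 and 249 CPM in sgEGR1 cells, where they overlapped. The average log2 fold change of MCM6 was 0.09 (SE 0.027, adjusted p = 0.0577, edgeR), just outside the threshold. MCM7, the member with the highest level per kilobase, measured 606, 642 and 626 CPM after PBS and 637, 645 and 672 CPM after SCF in sgControl cells. In sgEGR1 cells it measured 626, 616 and 614 against 638, 649.6 and 659 CPM (average log2 fold change 0.06, adjusted p = 0.175, edgeR).

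All 6 helicase activators had average log2 fold changes above 0, from 0.12 to 0.18, and CDC45 and GINS2 passed, beside 9.03% of all genes. CDC45, the helicase cofactor (chr22:19479457-19520612, plus strand), measured 60.1, 58.7 and 60.7 CPM after PBS and 68.5, 66.0 and 69.3 CPM after SCF in sgControl cells, and 63.5, 59.2 and 62.4 against 67.8, 67.1 and 67.0 CPM in sgEGR1 cells. Its groups did not overlap, and the average log2 fold change was 0.15 (SE 0.030, adjusted p = 0.00629, edgeR). GINS2, a subunit of the GINS complex (chr16:85676198-85690073, minus strand), measured 46.2, 47.4 and 48.8 CPM after PBS and 47.7, 52.6 and 55.5 CPM after SCF in sgControl cells, and 47.8, 48.4 and 47.9 against 58.9, 55.3 and 54.6 CPM in sgEGR1 cells. Only sgControl SCF replicate 1 reached into the PBS range, and the average log2 fold change was 0.18 (SE 0.041, adjusted p = 0.017, edgeR). GINS4, with an average log2 fold change of 0.12, lay just outside the threshold (adjusted p = 0.0518, edgeR), and MCM10, GINS3 and GINS1 followed at 0.14, 0.14 and 0.12 with adjusted p of 0.0883, 0.143 and 0.237.

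None of the 9 primase and polymerase subunits passed in edgeR's test (9.03% of all genes), and 4 had an unadjusted p under 0.05 (22.7% of all genes). DESeq2 called 2 of the 9 (POLD1 and POLD2), beside 13.6% of the genes given an adjusted p. Of the 9, 5 had a log2 fold change above 0 and 4 below. POLD1, the catalytic subunit of polymerase delta, measured 232, 241 and 237 CPM after PBS and 222, 228 and 212 CPM after SCF in sgControl cells, and 235, 239 and 247 against 222, 225 and 230.3 CPM in sgEGR1 cells. All SCF libraries lay below all PBS libraries, with an average log2 fold change of -0.09 (SE 0.028, adjusted p = 0.0595, edgeR). POLE, the catalytic subunit of polymerase epsilon, had the same average, -0.09, with an adjusted p of 0.298, while POLD3 and POLD2, accessory subunits of polymerase delta, were at 0.10 and 0.07 (adjusted p = 0.158 and 0.141, edgeR).

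Of the clamp, its loader and the single-strand binding proteins, 2 of 9 passed, beside 9.03% of all genes. PCNA (chr20:5114953-5126626, minus strand) measured 283, 301 and 298 CPM after PBS and 319, 311 and 327 CPM after SCF in sgControl cells, and 301, 280.3 and 277 against 338, 310.3 and 308 CPM in sgEGR1 cells. RFC2, a loader subunit (chr7:74231499-74254458, minus strand), measured 57.9, 60.5 and 56.8 CPM after PBS and 62.1, 64.7 and 64.7 CPM after SCF in sgControl cells, and 58.6, 56.5 and 59.1 against 65.5, 64.5 and 65.3 CPM in sgEGR1 cells. Neither gene's groups overlapped, and the average log2 fold changes were 0.14 for PCNA (SE 0.035, adjusted p = 0.0299, edgeR) and 0.15 for RFC2 (SE 0.030, adjusted p = 0.00866, edgeR). PCNA was no longer called without any single one of sgControl PBS replicates 1 and 3, sgControl SCF replicates 1 and 3, sgEGR1 PBS replicates 2 and 3 and sgEGR1 SCF replicate 1 (adjusted p = 0.0546 to 0.0802, edgeR). RFC1, the large loader subunit, measured 182, 180.2 and 201 CPM after PBS and 172, 173 and 192 CPM after SCF in sgControl cells, and 196, 206 and 208 against 177, 180.0 and 178 CPM in sgEGR1 cells. Its groups were apart in sgEGR1 cells and overlapped in sgControl cells (average log2 fold change -0.13, SE 0.038, adjusted p = 0.0613, edgeR). The other loader subunits RFC3, RFC4 and RFC5 lay at 0.03, 0.02 and 0.03, and RPA1, RPA2 and RPA3 at 0.01, 0.06 and 0.03.

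FEN1, the flap nuclease (chr11:61792911-61797238, plus strand), measured 129, 127 and 122 CPM after PBS and 156, 144 and 148 CPM after SCF in sgControl cells, and 137, 118 and 118 against 153, 134 and 143 CPM in sgEGR1 cells. Its sgEGR1 PBS replicate 1 lay above the lowest SCF library, and the average log2 fold change was 0.23 (SE 0.046, adjusted p = 0.00891, edgeR). The ligase LIG1, which acts after FEN1, had an average log2 fold change of 0.00 with a 95% interval from -0.05 to 0.05.

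RRM2, the regulated small subunit of ribonucleotide reductase (chr2:10120698-10211725, plus strand), measured 233, 289 and 279.5 CPM after PBS and 295, 334 and 323 CPM after SCF in sgControl cells, and 258, 269 and 275 against 315, 334 and 322 CPM in sgEGR1 cells. The groups did not overlap, though sgControl PBS replicate 1 was far below its group. The average log2 fold change was 0.26 (SE 0.052, adjusted p = 0.00789, edgeR). The large subunit RRM1 was at 0.02 with a 95% interval from -0.06 to 0.09, TYMS, the thymidylate synthase, at -0.01, and TK1 at 0.01, so the other 3 nucleotide enzymes did not pass. UHRF1 was at 0.09 (adjusted p = 0.137, edgeR).

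**Figure D3:**
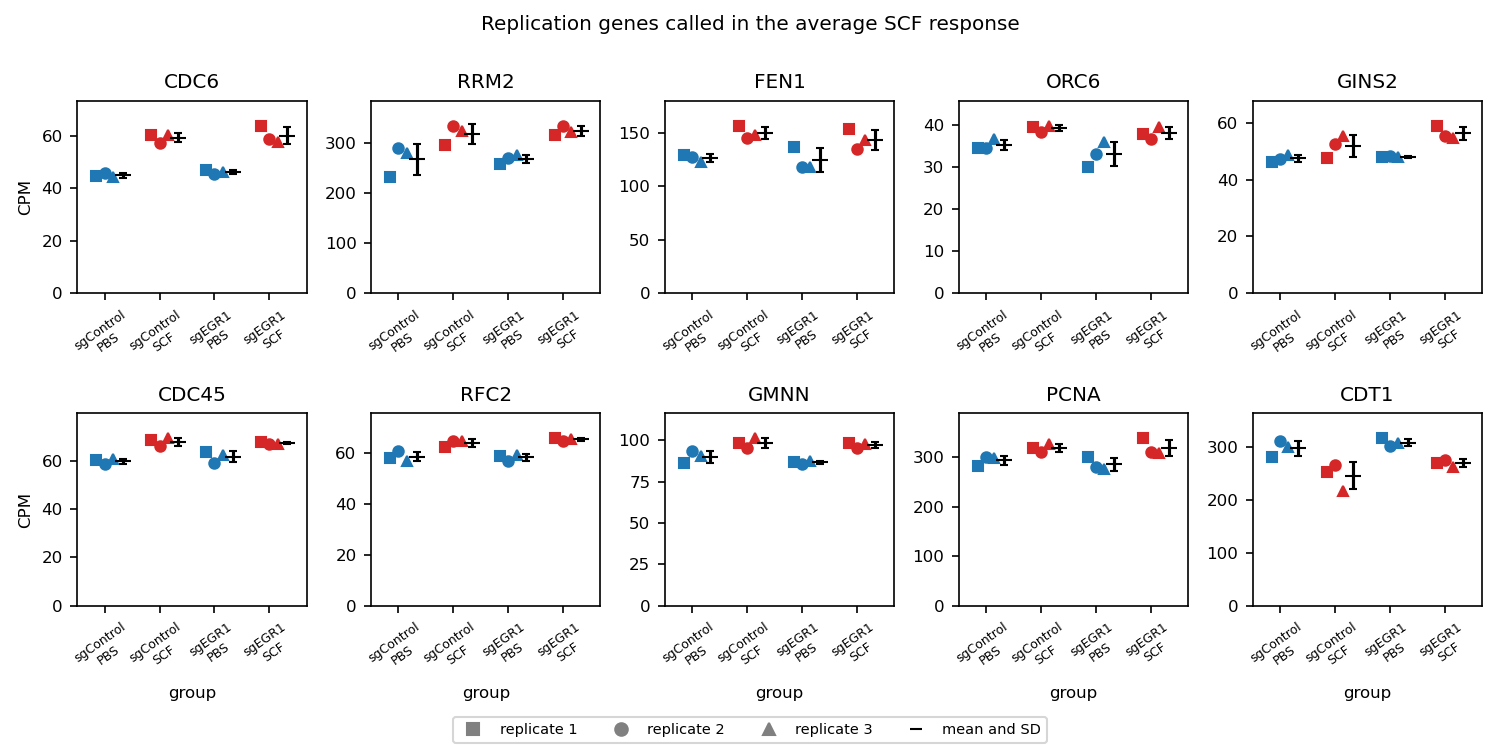
CPM of the 10 replication genes called in the average SCF response, 1 panel each, by group (blue PBS, red SCF; marker shape gives the replicate; bars are mean and SD, n = 3; axes start at 0). CDC6 goes from 44.3 to 47.1 CPM after PBS to 57.2 to 63.7 CPM after SCF, and CDT1 falls from 282 to 316 CPM to 217 to 276 CPM.

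Across the members, 7 of 43 had all 6 SCF libraries above all 6 PBS libraries (ORC6, CDC6, GMNN, CDC45, PCNA, RFC2 and RRM2), against 4.43% of the genes tested, and 2 had all 6 below (CDT1 and POLD1), against 2.47%. SCF libraries were also deeper on average, and the part of depth in these differences was not tested. Of the 43 genes, 28 share no exon bases with another annotated gene (GENCODE, GRCh38), 12 overlap a gene on the opposite strand and 4 one on the same strand. Among the called genes CDC45 and GINS2 (with GSE1) overlap on the opposite strand and FEN1 with FADS2 on the same strand. POLD1, which was not called by edgeR, also overlaps a gene on the same strand. The counts of these genes are less certain, since use of strand in the counting was not given in the sources used here.

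**Figure D4:**
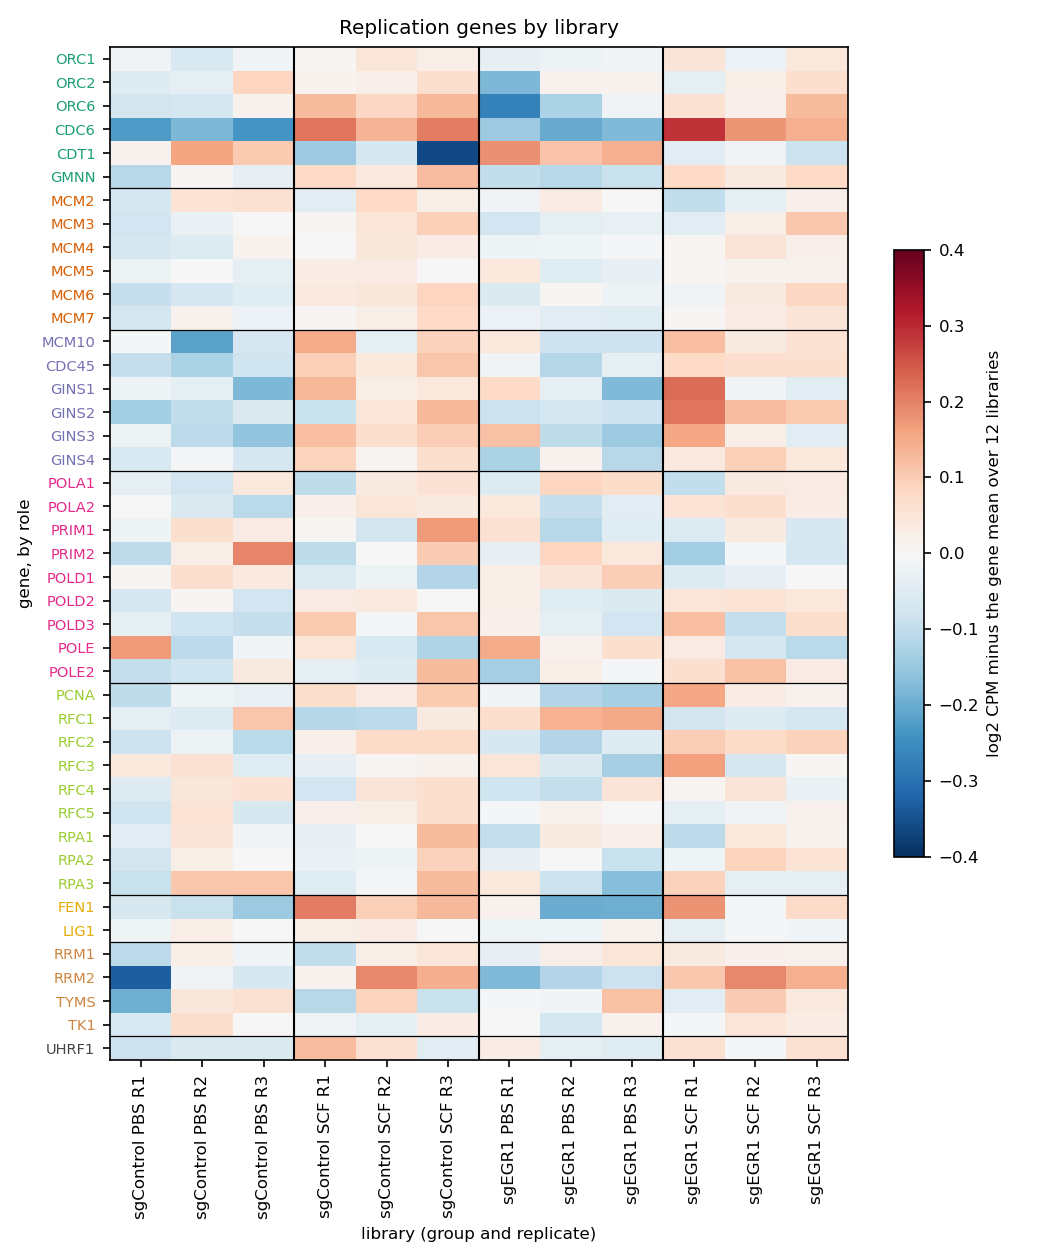
Log2 CPM of each replication gene minus its mean over 12 libraries, by role (rows) and library (columns; R1 to R3 are replicates 1 to 3). The CDC6 row is low in the 6 PBS columns and high in the 6 SCF columns, and the CDT1 row is the reverse.

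In sgControl cells alone, 3 of 43 members passed (6.98% beside 2.89% of all genes; 2 higher against 2.12% and 1 lower against 0.775%). CDC6 was at 0.40 (SE 0.050, adjusted p = 0.00108, edgeR), CDC45 at 0.18 (SE 0.042, adjusted p = 0.0402, edgeR) and CDT1 at -0.28 (SE 0.067, adjusted p = 0.0464, edgeR). The next by p were FEN1 at 0.24 (SE 0.065, adjusted p = 0.0722, edgeR), RRM2 at 0.25 (SE 0.074, adjusted p = 0.111, edgeR) and MCM6 at 0.13 (SE 0.039, adjusted p = 0.125, edgeR). RRM2 was at 0.16 without sgControl PBS replicate 1, its lowest library. At an unadjusted p under 0.05 there were 16 of the 43 members, against 14.3% of all genes, and the median over members was 0.06. Counts that follow, with a library left out, were not set beside the share of all genes. The count was 1, CDC6, without any single one of sgControl PBS replicates 2 and 3, sgControl SCF replicates 1 and 3, sgEGR1 PBS replicate 3 and each sgEGR1 SCF replicate, the sgEGR1 libraries entering through the shared estimate of the spread. CDC45 was also lost without sgControl PBS replicate 1 (adjusted p = 0.0759) and sgControl SCF replicate 2 (adjusted p = 0.0655), and CDT1 without sgEGR1 PBS replicates 1 (adjusted p = 0.0541) and 2 (adjusted p = 0.0684, all by edgeR).

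In sgEGR1 cells, 1 of 43 passed (2.33% beside 2.59% of all genes), which was near the background in this fit. With a term for replicate 1 it was 9 (20.9% beside 8.56%). There was 1 higher call against 1.81% of all genes and 0 lower calls against 0.788%. The call without that term was CDC6, at 0.38 (SE 0.050, adjusted p = 0.00156, edgeR). GINS2 at 0.23 (SE 0.058, adjusted p = 0.0634, edgeR), RFC2 at 0.16 (SE 0.042, adjusted p = 0.0644, edgeR), GMNN at 0.16 (SE 0.042, adjusted p = 0.0655, edgeR), RRM2 at 0.27 (SE 0.074, adjusted p = 0.0774, edgeR) and RFC1 at -0.19 (SE 0.054, adjusted p = 0.104, edgeR) came next. At an unadjusted p under 0.05 there were 13 of the 43 members, against 15% of all genes. The count was 3 without sgControl PBS replicate 1, and 2 without sgControl SCF replicate 1, sgControl SCF replicate 3 or sgEGR1 PBS replicate 1. These counts were not set beside the share of all genes. DESeq2 called 8 of the 43 members here, beside 6.25% of the 12630 genes given an adjusted p. In sgControl cells it called 6 of the 43, beside 6.48% of 12099 such genes.

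The responses of sgControl and sgEGR1 cells, which share no libraries, lay on the same side of 0 for 34 of the 43 genes. Across these genes, which are not independent replicates and come from 1 fit, Pearson's r was 0.876 and Spearman's rho 0.811, given as a description. The same values over all genes are not given, so these do not set the members apart from other genes. The difference between the responses was tested directly, as sgEGR1 minus sgControl, and 0 of 43 members and 0 of 15492 genes passed (0% called) with edgeR. At an unadjusted p under 0.05 there were 0 members and 306 genes (1.98%), and DESeq2 called 0 members and 2 genes (0.00724%). The lowest p belonged to RFC1 (-0.12, SE 0.077, unadjusted p = 0.15, adjusted p = 1 by edgeR) and RFC5 (-0.08, SE 0.062, unadjusted p = 0.211, adjusted p = 1 by edgeR). RFC5, another loader subunit, measured 67.8, 74.4 and 68.5 CPM after PBS and 72.7, 73.0 and 75.1 CPM after SCF in sgControl cells, and 71.2, 72.5 and 71.6 against 69.8, 71.0 and 72.4 CPM in sgEGR1 cells.

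RFC1 was at -0.07 without sgControl SCF replicate 3, and RFC5 at -0.12 without sgControl PBS replicate 2. For CDC6 the difference between responses was -0.02 (95% interval from -0.17 to 0.13), or 0.00797 once replicate 3 of the sgEGR1 SCF group was left out, and for CDT1 0.09 (95% interval from -0.12 to 0.29). The median half-width of the members' 95% intervals was 0.154 on the log2 scale. That is the width of an unadjusted interval, so larger differences could also miss the adjusted threshold. The missing calls do not show that the responses were alike.

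Guide groups compared directly gave no call either, with edgeR counts of 0 members and 0 genes (0% called) after PBS and after SCF. Members with an unadjusted p under 0.05 numbered 0 in both, against 715 genes (4.62%) after PBS and 361 genes (2.33%) after SCF. DESeq2 called 0 members in both (0.103% of the genes given an adjusted p after PBS and 0.0145% after SCF). After PBS the lowest p were those of RFC1 (0.11, SE 0.054, unadjusted p = 0.0626, adjusted p = 0.999 by edgeR) and RPA3, the small single-strand binding subunit (-0.12, SE 0.075, unadjusted p = 0.148, adjusted p = 0.999 by edgeR). RPA3 measured 62.0, 70.9 and 71.2 CPM in sgControl and 67.9, 62.0 and 58.5 CPM in sgEGR1 cells after PBS, and 63.7, 65.7 and 72.0 against 70.2, 64.1 and 64.1 CPM after SCF, with overlapping groups. The PBS value of RPA3 was -0.18 without replicate 1 of either guide group and -0.07 without sgEGR1 PBS replicate 3. After SCF they were those of CDT1 (0.14, SE 0.067, unadjusted p = 0.0616, adjusted p = 1 by edgeR) and GINS2 (0.12, SE 0.057, unadjusted p = 0.0665, adjusted p = 1 by edgeR). CDT1 was at 0.06 without sgControl SCF replicate 3, and GINS2 at 0.05 without sgControl SCF replicate 1. These comparisons share libraries with the SCF comparisons. Without the library labelled sgEGR1 SCF replicate 3, and with a term for replicate 1, the 3 counts of members were again 0.

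**Figure D5:**
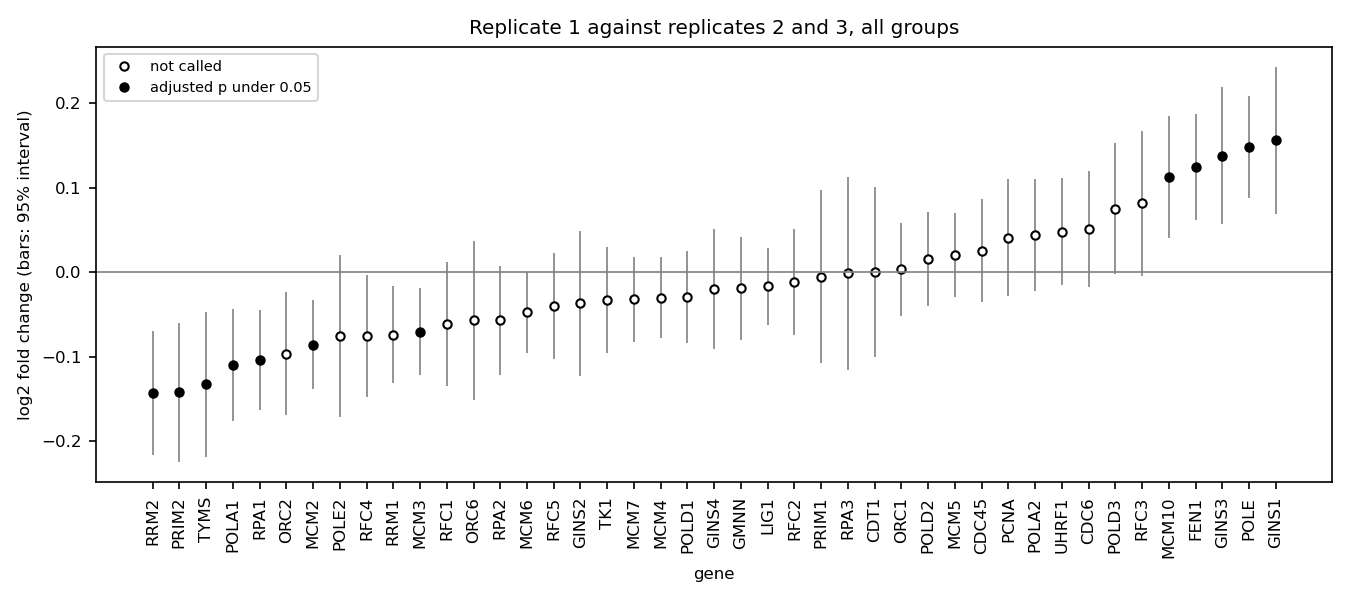
Log2 fold change of each replication gene in the 4 replicate 1 libraries against the 8 others, with 95% intervals; filled points had an adjusted p under 0.05. There are 5 filled points above 0, up to GINS1 (0.16), and 7 below, down to RRM2 (-0.14).

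Numbered replicates differed for some replication genes as well. Replicate 1 against replicates 2 and 3, in a fit with the 4 groups, called 12 of 43 members (27.9%), near the 26.6% of all genes. Of these, 5 were higher (13.1% of all genes) and 7 lower (13.4% of all genes). The labels give the number alone, and what the number stands for was not given in the sources used here. The count was 7, 6, 5 and 6 without replicate 1 of sgControl PBS, sgControl SCF, sgEGR1 PBS and sgEGR1 SCF in turn. No share of all genes is set beside these counts. POLE and RRM2 were called without any single library, and each of the other 10 lost its call without at least 1.

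POLE was higher in replicate 1 (log2 fold change 0.15, SE 0.028, adjusted p = 0.0017, edgeR), with 234, 216, 231 and 213 CPM in replicate 1 of sgControl PBS, sgControl SCF, sgEGR1 PBS and sgEGR1 SCF against 192 to 218 CPM in the other 8 libraries. GINS1 at 0.16 (SE 0.040, adjusted p = 0.012, edgeR) had 45.0, 50.1, 48.3 and 53.4 CPM in replicate 1, in the same order of groups, against 40.3 to 47.0 CPM. Both ranges overlapped at their edges. GINS3 at 0.14 (SE 0.038, adjusted p = 0.0158, edgeR) had 36.2, 39.9, 39.8 and 40.9 CPM against 32.9 to 39.3 CPM. FEN1 at 0.12 (SE 0.029, adjusted p = 0.00687, edgeR) and MCM10 at 0.11 (SE 0.033, adjusted p = 0.0244, edgeR) completed the higher calls. MCM10, which helps to activate the helicase, had 76.5, 85.5, 79.3 and 83.7 CPM in replicate 1 and 66.4 to 82.1 CPM in the other libraries.

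RRM2 at -0.14 (SE 0.034, adjusted p = 0.00774, edgeR) was lower in replicate 1, the same gene that was higher with SCF. PRIM2, the large primase subunit, at -0.14 (SE 0.038, adjusted p = 0.0151, edgeR) had 48.5, 48.4, 50.8 and 47.1 CPM against 49.5 to 59.5 CPM. TYMS at -0.13 (SE 0.040, adjusted p = 0.0256, edgeR) had 125, 132, 142 and 138 CPM against 134 to 155 CPM. POLA1, the catalytic polymerase alpha subunit, at -0.11 (SE 0.031, adjusted p = 0.0179, edgeR) had 80.7, 77.1, 79.6 and 77.2 CPM against 78.5 to 87.8 CPM. RPA1 at -0.10 (SE 0.028, adjusted p = 0.014, edgeR) had 236, 237, 227 and 226 CPM against 241 to 265 CPM. Of the 43 genes, RPA1 was the 1 whose replicate 1 libraries all lay below the other 8 (6.24% of all genes), and 0 had them all above (5.54% of all genes). MCM2 at -0.09 and MCM3 at -0.07 were the remaining lower calls.

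Another 45 genes of the process (origin firing factors, fork protection proteins, alternative clamp loaders, histone chaperones and nucleotide enzymes) were all tested. In the average SCF response 7 of 45 passed (15.6% beside 9.03% of all genes), 4 higher and 3 lower, and their median log2 fold change was 0.02. In sgControl cells 1 of 45 passed and in sgEGR1 cells 1 (2.22% each, beside 2.89% and 2.59% of all genes). In the guide comparisons after PBS and SCF and the difference between responses 0 passed with edgeR and with DESeq2, and 3, 0 and 1 of them had an unadjusted p under 0.05 (4.62%, 2.33% and 1.98% of all genes). The median of the 43 genes, 0.06, and that of the 45 were not compared by a test.

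TICRR, an origin firing factor, measured 59.8, 56.8 and 61.0 CPM after PBS and 55.7, 53.3 and 51.6 CPM after SCF in sgControl cells, and 66.0, 63.4 and 63.0 against 54.9, 52.1 and 51.6 CPM in sgEGR1 cells. Every SCF library lay below every PBS library, and the log2 fold change was -0.28 in sgEGR1 cells (SE 0.049, adjusted p = 0.00956, edgeR) and -0.21 on average (SE 0.034, adjusted p = 0.00235, edgeR). The call in sgEGR1 cells was lost without sgEGR1 SCF replicate 2 (adjusted p = 0.0564, edgeR) or 3 (adjusted p = 0.0518, edgeR). MCM9, an MCM relative that acts in repair, measured 38.8, 39.0 and 40.2 CPM after PBS and 35.8, 35.5 and 33.7 CPM after SCF in sgControl cells, and 39.1, 38.0 and 38.5 against 34.8, 33.3 and 32.6 CPM in sgEGR1 cells (average -0.18, SE 0.034, adjusted p = 0.00575, edgeR). Both were lower while the licensing factor CDC6 was higher.

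TIPIN, a fork protection protein, measured 10.7, 11.4 and 12.8 CPM after PBS and 15.5, 14.8 and 15.2 CPM after SCF in sgControl cells, and 13.7, 13.6 and 13.5 against 15.1, 15.6 and 14.4 CPM in sgEGR1 cells. It was called in sgControl cells (0.38, SE 0.078, adjusted p = 0.0227, edgeR), whereas in sgEGR1 cells it was at 0.14 (adjusted p = 0.447, edgeR), and the difference between the responses was -0.24 (adjusted p = 1, edgeR). The sgControl call was lost without any single one of sgControl PBS replicates 1 and 2 and the 3 sgControl SCF replicates (adjusted p = 0.0587 to 0.0876, edgeR), and with replicates 2 and 3 only (adjusted p = 0.115, edgeR). CHAF1B, a subunit of the chromatin assembly factor that loads histones behind the fork, measured 61.7, 59.0 and 61.0 CPM after PBS and 73.4, 66.2 and 72.5 CPM after SCF in sgControl cells, and 66.0, 60.8 and 59.6 against 73.4, 69.2 and 67.0 CPM in sgEGR1 cells. It did not pass in sgControl cells (0.22, SE 0.057, adjusted p = 0.0598, edgeR) and did on average (0.20, SE 0.040, adjusted p = 0.00902, edgeR). CHAF1B shares exon bases with MORC3 on the same strand. TICRR (with KIF7) and MCM9 overlap genes on the opposite strand, so the counts of all these genes are less certain too.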

How the data were processed

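RNA was sequenced from 12 libraries. The deposited values were estimated counts per gene, all whole numbers, made by the authors from reads aligned to hg38 with HISAT2 and assembled with StringTie; annotation release, multi-mapping and strand settings are not given in the sources used here. The labels and the study's methods name different RNA and library kits. The column code SG2 was taken as sgEGR1.

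Counts were fitted with edgeR 4.0.16 (R 4.3.3): filterByExpr, TMM, one term per group over all 12 libraries, quasi-likelihood F test, Benjamini-Hochberg over 15492 genes, call at an adjusted p under 0.05. The average SCF response is the mean of both responses. CPM use TMM-scaled totals. DESeq2 1.42.0, RLE scaling, no filter, a replicate block, a term for replicate 1, replicates 2 and 3 only, and leaving out each library were alternatives. The fits were also run on simulated data, with larger changes than those of the members and no replicate 1 difference. That simulation does not measure error rates or power for these results.

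The members and lists were chosen with earlier results of these data known. Values in every library are given for the 6 members with the lowest p in each SCF comparison, the 2 in each guide comparison, up to 5 per direction for replicate 1, the members at the extremes of level, and 2 of the 45 other genes per SCF comparison; ORC6, PCNA and POLD1 were added after their values were seen. The labels number the replicates; the study calls them biological, and p-values measure the spread between them. Replicate pairs differed beyond sampling noise. Residuals of same-numbered libraries correlated at 0.102 to 0.269 between guide groups and at 0.00766 to 0.272 between PBS and SCF. These values do not settle whether libraries were paired, although 9 of the 12 libraries correlated best with their own number. The main fit had no replicate block. Depth was 23498065 to 32039680 counts per library.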

Additional observations from a re-analysis of the deposited data

How the results depend on the processing

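In parentheses, where given, is the share of all genes called in the same fit. Counts with each library left out have no such share beside them, so they do not separate members from all genes. In sgControl cells 3 members were called, with 6 by DESeq2, 1 without the low-count filter (1.19%), 8 with the replicate block (7.64%), 8 with the term for replicate 1 (8.32%), and 1 to 3 when each library was left out. In sgEGR1 cells the count was 1, with 8 by DESeq2, 8 with the replicate block (7.97%), 9 with the term for replicate 1 (8.56%), 3 with replicates 2 and 3 only (4.45%), and 1 to 3 when each library was left out. Dropping sgEGR1 SCF replicate 3 together with the term for replicate 1, chosen after seeing the data, gave 4 (4.92%). The average response called 10, with 18 by DESeq2, 20 with the replicate block (18.1%), 20 with the term for replicate 1 (18.5%), 17 with that term and without the same library (15.4%), and 8 to 11 when each library was left out. Replicate 1 against the others called 12, and 5 to 13 when each library was left out. The counts for the guide comparisons and the difference between responses were 0 under every alternative run. Libraries of different groups share only a number. Of the 12 libraries, 9 correlated best with their own number, a hint from the data and not from the design. The replicate block changed none of the 3 guide counts.

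Among the 43 members in the average response and the named genes in the other comparisons, direction reversed only where the gene had no call in that comparison. In the average response TYMS was at 0.0053 without the low-count filter and 0.0081 with the term for replicate 1 and without sgEGR1 SCF replicate 3. With replicates 2 and 3 only, POLA1 was at 0.0098 and LIG1 at -0.0014. Leaving out each library gave -0.0417 to 0.0175 for TYMS, -0.0321 to 0.0145 for POLA1, -0.0265 to 0.0371 for PRIM1, -0.00125 to 0.0567 for RFC3, -0.00847 to 0.0388 for RPA1, -0.0011 to 0.0586 for RPA3 and -5.15e-05 to 0.00999768 for LIG1. The difference between responses for CDC6 ran from -0.0658 to 0.00797 when each library was left out, and was 0.000754 with the term for replicate 1 and without sgEGR1 SCF replicate 3.

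CDC6 was called in all 18 alternatives in sgControl cells and all 19 in sgEGR1 cells, CDC45 in 6 of 18 and CDT1 in 7 of 18 in sgControl cells. In the average response CDC6, CDC45, CDT1, RRM2, RFC2, FEN1, GMNN and GINS2 were called in all 19, PCNA in 12 and ORC6 in 11. The member medians of the SCF responses stayed between 0.05 and 0.08. The cause of the differences between tools was not tested. With 3 libraries per group the median 95% half-width of a member was 0.109 for 1 guide group and 0.0769 for the average. These are widths of unadjusted intervals and not limits of detection. Larger changes could also miss the adjusted threshold, as GINS4 did at 0.12 in the average response by edgeR.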
